A study of Homo sapiens with 8 samples.

Results

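The transcription factors that set the identity of a germinal centre B cell were followed through an Ago2-RIP-Chip experiment on ST486 cells, a cell line established from Burkitt lymphoma. The members were 10 genes, BCL6, PAX5, PRDM1, IRF4, IRF8, EBF1, BACH2, FOXO1, IKZF1 and POU2AF1, and their probes were found through the RefSeq accession that the array gives for each non-control probe. Of the 41000 probes on the array, 12 belonged to 9 of these genes, among 16557 genes named in all. BCL6, the repressor that defines the germinal centre programme, matched no probe through the RefSeq table used and was not analysed here. Of the 12 probes, 7 from 6 genes passed the filters, which kept 15529 probes in all: detection in at least 4 of the 8 channels and labellings of the same RNA within 2-fold of each other.

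Germinal centre B cells divide rapidly, edit their antibody genes and then leave as plasma cells or memory cells, and a small network of transcription factors holds them in that state. EBF1 and PAX5 commit a cell to the B lineage, IKZF1 and POU2AF1 act with them, BACH2 and BCL6 keep the plasma cell programme silent, and FOXO1 and IRF8 maintain the germinal centre reaction. IRF4 and PRDM1 drive the exit to plasma cells. MiRNAs act on transcripts through Ago2, the protein that carries them, so RNA pulled down with Ago2 holds the transcripts that miRNAs occupy at that moment.

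The miRNA added to these cells was miR-155. Its mature 5p form is shown because the experiment asks what it binds, with the seed, bases 2 to 8, in capitals. RefSeq places it on the + strand at chr21:25573983-25574006 of GRCh38.p14.
hsa-miR-155-5p: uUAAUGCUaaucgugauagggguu
The reverse complement of its first 8 bases is AGCAUUAA. The members' transcripts were not searched for it, and neither array sequence nor gene coordinates were used here.

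EV-ST486 cells, called EV cells here, carried the empty retroviral MXW-PGK-IRES-GFP vector, and miR-155-ST486 cells, called miR-155 cells, carried the same vector with the miR-155 precursor, so both had been transduced, cultured in RPMI-1640 and sorted for GFP. The whole lysate gave the total (T) fraction and the Ago2 immunoprecipitate the IP fraction, which makes 4 RNA samples, 1 per condition. Each was labelled with Cy3 and with Cy5, and each array paired the IP with the total of one vector, in either dye orientation, which makes 4 arrays. The labellings are technical repeats, so no test was possible. A difference in a member is given with its value in each orientation or labelling where the text turns on it.

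The number of arrays limits the precision of all values. The arrays lay on 2 slides, and 0 slides held both vectors, so slide and vector cannot be told apart, while IP and total RNA of one vector shared their arrays. Between 14094 and 22161 probes were detected in a channel and 0 were saturated. Over the kept probes, log2 IP/T ratios differed between the orientations by a median of 0.43 in EV cells and 0.28 in miR-155 cells. The log2 of the miR-155/EV ratio, the IP/T ratio of miR-155 cells over that of EV cells, differed by a median of 0.30. It correlated between the orientations with r = 0.32 over probes, which are not replicates, against 0.82 and 0.91 for the IP/T ratios. Signals below are quantile-normalized intensities, and they compare channels of one probe and never one probe with another. Fewer cells of a type and less RNA per cell cannot be told apart in such samples.

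Most markers of the label were found. MS4A1, CD79A and CD79B, which belong to the B cell receptor complex and surface of mature B cells, and MME and CD38, surface proteins of germinal centre B cells, were detected in all 8 channels. SERPINA9 and CD37 were detected in 0 channels. Of 24 germinal centre B cell marker genes with a probe, 15 were detected in all 8 channels. Of 19 marker genes of T cells, myeloid, natural killer, red and epithelial cells and platelets with a probe, 10 were detected in 0 channels. Among them were CD3D, CD3E, CD3G, LYZ and EPCAM. The stromal marker of the list, COL1A1, matched no probe. CD4, LCK and CD8A, known from T cells, were detected in all 8 channels, and CD33 and CD14, known from myeloid cells, in 6 and 5 channels on the best probe of each. CD4 and LCK alone of the list passed the filters.

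**Figure D1:**
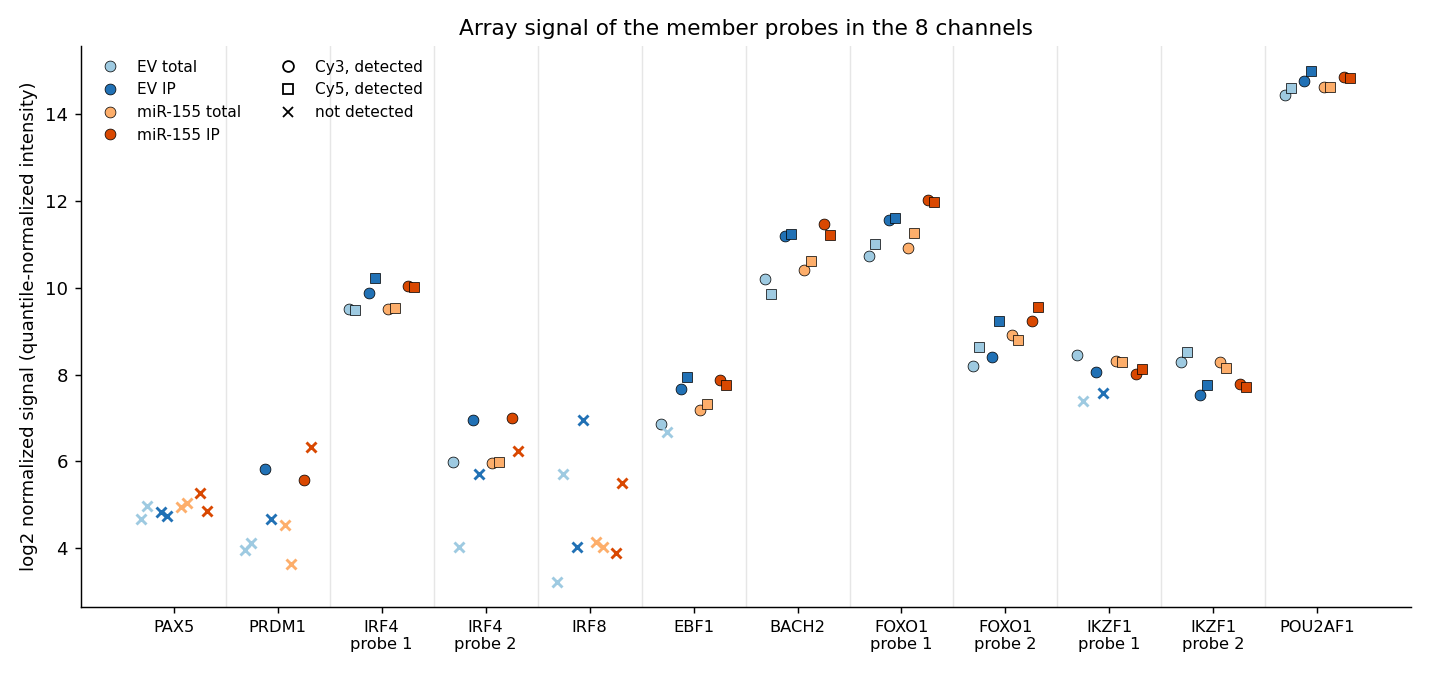
Log2 quantile-normalized array signal of the 12 member probes in the 8 channels, with colour for the RNA sample, circles for Cy3, squares for Cy5 and crosses for channels not detected. PAX5 and IRF8 have crosses only, and the IP signals of BACH2 and of FOXO1 probe 1 lie above their total signals in both vectors. Heights compare channels of one probe, not one probe with another.

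Among the factors that commit cells to the B lineage, EBF1 gave more signal in the IP than in the total fraction and PAX5 was not measurable. The EBF1 probe gave total signals of 115 with Cy3 and 103 with Cy5 in EV cells, and 145 and 160.0 in miR-155 cells. Its IP signals were 204 and 247 in EV cells and 236 and 216 in miR-155 cells. The IP labellings of either vector lay above all total labellings, and those of the vectors overlapped. The EBF1 IP/T ratio was 2.06 in EV cells (2.14 with total RNA in Cy3 and 1.99 with total RNA in Cy5) and 1.49 in miR-155 cells (1.49 and 1.48). The EBF1 probe missed detection in 1 channel, the EV total RNA in Cy5, so its EV ratio rests in that orientation on a signal near background. On the log2 scale that ratio was 1.04, and with normexp background correction it was 0.40 after quantile and 0.25 after loess and Aquantile normalization.

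The PAX5 probe was not well above background in any of the 8 channels. Its signals ran from 25.6 to 38.5 and were mixed between fractions and vectors, so no fold is given.

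POU2AF1, the coactivator that B cells use at octamer promoters, was detected in all 8 channels. Total signals were 22287 and 24899 in EV cells and 25472 and 25435 in miR-155 cells, with Cy3 and Cy5 in this order here and below. IP signals were 27752 and 32470 in EV cells and 29496 and 29228 in miR-155 cells. All 4 IP labellings lay above all 4 total labellings, by little: the IP/T ratio was 1.27 in EV cells (1.46 and 1.12) and 1.15 in miR-155 cells (1.15 and 1.16).

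IKZF1, the zinc finger factor Ikaros, was the member that lay on the total side. Its kept probe, probe 2, gave total signals of 313 and 366 in EV cells and 311 and 286 in miR-155 cells, and IP signals of 186 and 216 and of 219 and 211. Each IP labelling lay below each total labelling. The IP/T ratio was 0.59 in EV cells (0.69 and 0.51) and 0.72 in miR-155 cells (0.68 and 0.76), so the signal was lower in the IP than in the total fraction without reaching 2-fold. The IP/T ratio of IKZF1 probe 2 stayed below 1 in all 10 processing settings tried, in either vector. The other IKZF1 probe, probe 1, was left out by the filters and gave 0.93 in EV cells, from orientations of 0.55 and 1.58.

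BACH2, the repressor that delays plasma cell differentiation by silencing PRDM1, had the highest IP/T ratio in EV cells among the 7 kept probes. Total signals were 1175 and 930.0 in EV cells and 1357 and 1571 in miR-155 cells. IP signals were 2353 and 2400 in EV cells and 2836 and 2384 in miR-155 cells. All 4 IP labellings lay above all 4 total labellings, the IP labellings of the vectors overlapped, and the total labellings of the vectors did not. The BACH2 IP/T ratio was 2.27 in EV cells (2.04 and 2.53) and 1.78 in miR-155 cells (1.76 and 1.81). Over 10 settings it ran from 1.93 to 2.28 in EV cells, where 8 settings gave 2 or more, and from 1.68 to 1.86 in miR-155 cells.

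FOXO1, the forkhead factor of the germinal centre dark zone, had a pair of kept probes that differed in how well they repeated. Probe 1 gave total signals of 1697 and 2057 in EV cells and 1925 and 2451 in miR-155 cells, against IP signals of 3002 and 3104 and of 4188 and 4030. The 4 IP labellings of probe 1 lay above its 4 total labellings, and the IP labellings of miR-155 cells lay above those of EV cells. The IP/T ratio of FOXO1 probe 1 was 1.63 in EV cells (1.83 and 1.46) and 1.89 in miR-155 cells (2.09 and 1.71), the highest of the kept member probes in miR-155 cells.

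FOXO1 probe 2 gave total signals of 292 and 399 in EV cells and 483 and 444 in miR-155 cells. Its IP signals were 340.0 and 602 in EV cells and 602 and 755 in miR-155 cells. The EV fractions overlapped, and the orientations there gave IP/T ratios of 2.06 and 0.85, with a mean of 1.32. In miR-155 cells the fractions did not overlap and the ratio was 1.46 (1.56 and 1.36). Both FOXO1 probes had mean IP/T ratios above 1 in both vectors in the 10 settings, and the EV value of probe 2 is within its labelling error.

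The IRF8 probe was not well above background in any of the 8 channels. IRF8 is a factor of the interferon regulatory family that germinal centre B cells use, and SPI1, its partner on DNA, was detected in 2 of 8 channels and was left out by the filters. The IRF8 signals ran from 9.31 to 123, and labellings of the same RNA differed by up to 7.61-fold, so no fold is given.

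IRF4 and PRDM1, the factors of exit to the plasma cell, were measured unequally. IRF4 probe 1 was detected in all 8 channels, with total signals of 733 and 712 in EV cells and 734 and 746 in miR-155 cells. Its IP signals were 943 and 1204 in EV cells and 1045 and 1038 in miR-155 cells. The 4 IP labellings lay above the 4 total labellings, and the vectors were nearly level in both fractions. The IP/T ratio of IRF4 probe 1 was 1.47 in EV cells (1.64 and 1.32) and 1.41 in miR-155 cells (1.41 and 1.40). The other IRF4 probe, probe 2, was detected in 5 of 8 channels and was left out by the filters, since its EV total labellings gave 62.8 and 16.2, a 3.87-fold difference. Its IP/T ratio in EV cells was 0.83 with total RNA in Cy3 and 7.57 with total RNA in Cy5.

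PRDM1, the repressor Blimp-1 that silences the B cell programme in plasma cells, was detected in 2 of 8 channels, the Cy3-labelled IP RNA of both vectors, with signals of 56.6 in EV cells and 47.3 in miR-155 cells. Its total signals, 15.4 and 17.5 in EV cells and 23.3 and 12.4 in miR-155 cells, were not well above background. A bound was sought from normexp-corrected, loess and Aquantile normalized values, and it is open to dye bias on single arrays. It set the mean IP level over the higher of the dimmest level well above background and the probe's own total level. In both vectors the probe's own level was used, so the values are plain IP/T ratios and not lower bounds. They were 1.06 in EV cells and 1.23 in miR-155 cells, with the IP RNA above background in 1 of 2 labellings. These ratios are near 1, and no enrichment of PRDM1 can be read at this signal.

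**Figure D2:**
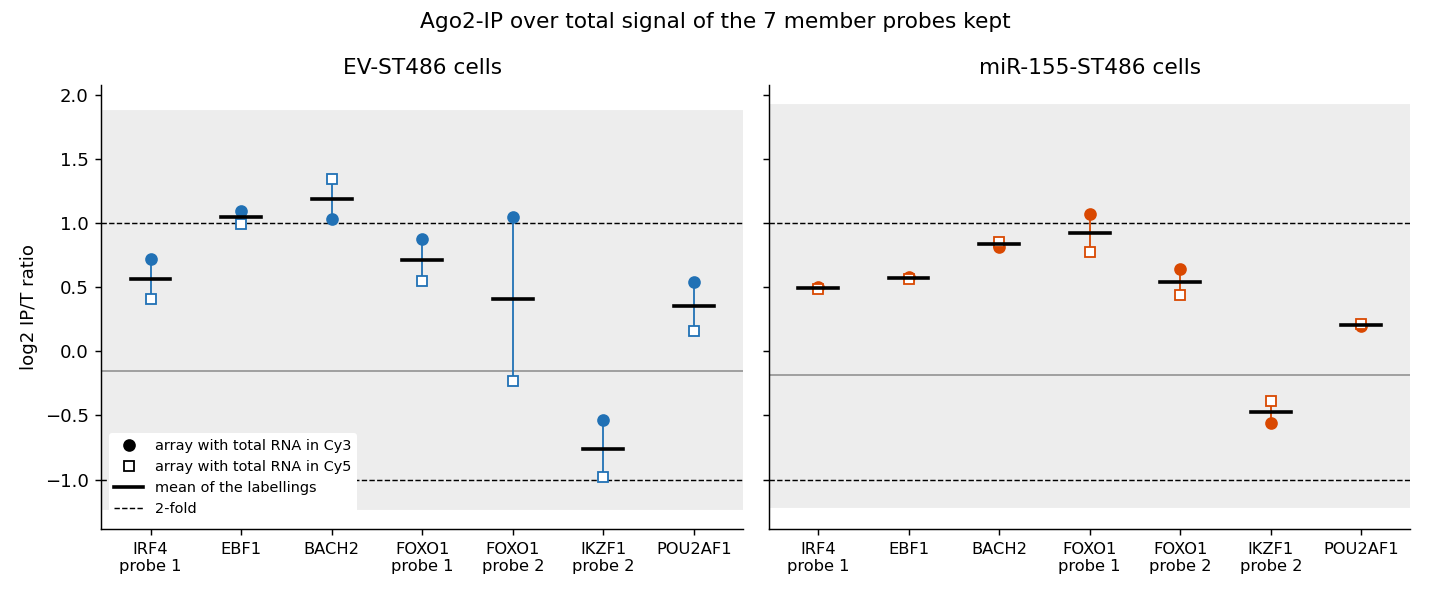
Log2 IP/T ratio of the 7 kept member probes in EV cells (left) and miR-155 cells (right), with a filled circle for the array with total RNA in Cy3, an open square for total RNA in Cy5 and a bar for the mean. The grey line is the median of the 15529 kept probes, the grey band runs from their 5th to their 95th percentile and dashed lines mark 2-fold. EBF1 and BACH2 reach 2-fold as means in EV cells only, and IKZF1 probe 2 lies below 0 in both.

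Set side by side, the 7 kept probes were first compared with an IP/T ratio of 2, the threshold that the study used. An IP/T ratio of 2 or more in EV cells was reached by 2 of 7 kept probes, EBF1 and BACH2, against 12.1% of all kept probes. In miR-155 cells it was reached by 0 of 7, against 12.2%, and in both vectors by 0 of 7, against 10.2%. A ratio of 2 or more in EV cells and below 2 in miR-155 cells was thus found for 2 of 7, against 1.85%, and of these EBF1 sat near the threshold, with 1 orientation below 2. With normexp correction 9 member probes passed the filters and 0 of them reached 2 in EV cells, against 6.05% of the probes kept there with quantile and 4.93% with loess and Aquantile normalization. No ratio was at or below 1/2, which 10% of kept probes reached in EV cells and 9.83% in miR-155 cells. With 7 probes these counts describe the members and carry no test.

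At an IP/T ratio of 1.5 the count was 3 of 7 in EV cells, EBF1, BACH2 and FOXO1 probe 1, and 2 of 7 in miR-155 cells, BACH2 and FOXO1 probe 1, against 19.3% of kept probes in either vector. IP signals lay above total signals on all 4 arrays for 5 of 7, those of EBF1, BACH2, POU2AF1, IRF4 probe 1 and FOXO1 probe 1, against 26.3%. They lay below on all 4 for 1 of 7, IKZF1 probe 2, against 39.3%. The median IP/T ratio of the members was 1.47 in EV cells and 1.46 in miR-155 cells, where the medians of all kept probes were 0.90 and 0.88. Within the array, BACH2 stood above 90.1% of kept probes in EV cells and 85.4% in miR-155 cells, and EBF1 above 88.5% and 80.4%. IKZF1 probe 2 stood above 18.1% and 32.9%.

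The members' IP/T ratios differed little between the vectors. None of the 7 changed at least 1.5-fold upward, against 4.37% of kept probes, and none downward, against 4.38%. At 2-fold upward the count was 0 of 7, against 1.15%. The median miR-155/EV ratio was 0.96 for the members and 0.98 for all kept probes.

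EBF1 and BACH2 were lower in miR-155 cells in both orientations, as were 32.7% of kept probes. The miR-155/EV ratio of EBF1 was 0.72 (0.70 and 0.74), with 7.57% of kept probes below it. That of BACH2 was 0.78 (0.86 and 0.71), with 13.7% below. In both genes the IP signals of the vectors overlapped, with miR-155 over EV at 1.01 for EBF1 and 1.09 for BACH2, while the total signals of miR-155 cells were higher, at 1.40 for EBF1 (1.25 in Cy3 and 1.56 in Cy5) and 1.40 for BACH2 (1.16 and 1.69). The lower ratios of both genes thus went with higher total signals, at IP signals near level. The miR-155/EV ratio of BACH2 stayed below 1 in all 10 settings, from 0.78 to 0.95, and that of EBF1 in 8 of 9, from 0.72 to 1.00. The total ratio ran from 1.06 to 1.79 for EBF1 and from 1.19 to 1.93 for BACH2 over the settings, lowest with normexp correction. The 1.56 of EBF1 in Cy5 rests on an EV total signal that was not detected.

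FOXO1 probe 1 was the 1 member probe higher in miR-155 cells in both orientations, against 26.7% of kept probes, and its miR-155/EV ratio was 1.16 (1.14 and 1.17). It fell below 1, to 0.93, with normexp and quantile normalization. FOXO1 probe 2 gave 0.76 and 1.59 in the orientations, which disagree in direction. The orientations of IRF4 probe 1 (0.86 and 1.06), POU2AF1 (0.79 and 1.04) and IKZF1 probe 2 (0.98 and 1.51) disagreed too, so no change between the vectors is given for them.

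Among the fractions taken alone, the total signal of miR-155 cells was higher than that of EV cells in both labellings for 6 of 7 probes, against 37.3% of kept probes, and lower in both for 1 of 7, IKZF1 probe 2, against 34.5%. All total labellings of miR-155 cells lay above those of EV cells in 5 of 7, for IRF4 probe 1, EBF1, BACH2, FOXO1 probe 2 and POU2AF1, against 25.8%. The sizes were small. None reached 1.5-fold upward, against 5.37%, or downward, against 4.12%, and the members' median was 1.16 with 1.01 over all kept probes. Without quantile normalization 4 of 7 reached it, EBF1, BACH2 and both FOXO1 probes, against 33.7% of the probes kept there in either direction, and the log2 median of all of these rose to 0.44. The ratios of IRF4 probe 1 (1.02) and POU2AF1 (1.08) fell below 1 in 2 of 11 settings, those with normexp correction, and that of IKZF1 probe 2 (0.88) rose above 1 without quantile normalization.

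In the IP fraction, both FOXO1 probes had labellings in miR-155 cells that all lay above those of EV cells, with ratios of 1.35 for probe 1 (1.40 in Cy3 and 1.30 in Cy5) and 1.49 for probe 2 (1.77 and 1.25). These are 2 of 7 kept probes against 26.9%, a share near that of all kept probes. The IP labellings of the other members overlapped between the vectors, with ratios from 0.98 for IRF4 probe 1 and POU2AF1 to 1.09 for BACH2. No member reached 1.5-fold in the IP fraction, against 6.42% of kept probes upward and 6.16% downward.

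**Figure D3:**
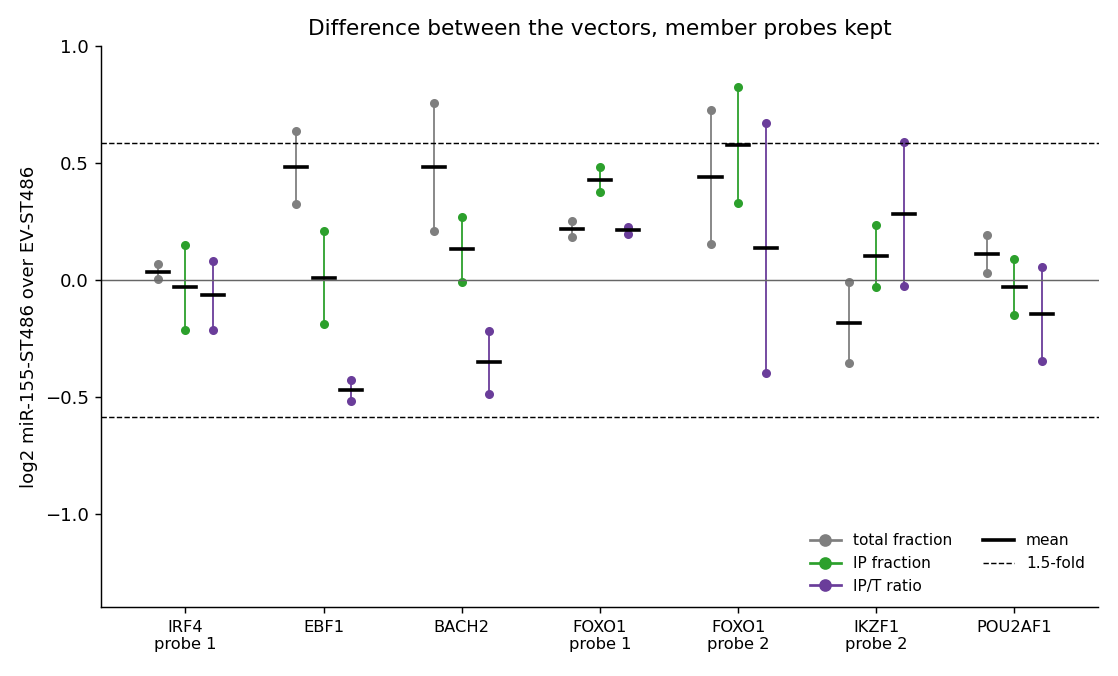
Log2 ratio of miR-155 over EV cells for the 7 kept member probes, in the total fraction (grey), the IP fraction (green) and the IP/T ratio (purple). Points are the dye labellings or orientations, bars their means and dashed lines 1.5-fold. EBF1 and BACH2 have raised totals and lowered IP/T ratios, and both FOXO1 probes have raised IP signals.

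The order of the 4 RNA samples was read within each kept probe. For EBF1 and BACH2 the IP samples of both vectors came first and were not separate from each other, then came the miR-155 total and then the EV total, each separate from its neighbour. For FOXO1 probe 1 the IP of miR-155 cells stood first and apart from the IP of EV cells, and the totals overlapped. FOXO1 probe 2 had the IP of miR-155 cells first and apart, then the miR-155 total, the EV IP and the EV total, each overlapping its neighbour. IRF4 probe 1 and POU2AF1 had both IP samples first, overlapping, and totals that were separate by 0.03 and 0.11 on the log2 scale. For IKZF1 probe 2 both totals came first and both IP samples last.

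The factors that work beside the members were measured from a list of 24 genes, among them the octamer proteins, the other Ikaros and BACH family members and the interferon regulatory factors IRF1 and IRF2. Of 36 probes for 23 of these genes, 23 probes for 19 genes were kept. In this and the next lists, highest and lowest refer to the mean log2 IP/T ratio over both vectors, and largest to the miR-155/EV ratio in either direction, among kept probes detected in all 8 channels. An IP/T ratio of 2 or more was reached by 11 of 23 in EV cells, against 12.1% of all kept probes. In miR-155 cells it was reached by 12 of 23, against 12.2%. The list median was 1.87 and 2.03. At or below 1/2 were 0 of 23 in EV cells, against 10%, and 1 of 23 in miR-155 cells, against 9.83%. ZBTB7A, a repressor of the BCL6 family of zinc finger proteins, stood at 6.23 and 5.07. SPIB, an ETS factor related to SPI1, stood at 0.56 and 0.59, and XBP1, the plasma cell secretory factor, at 0.94 and 0.73 on the probe detected in all 8 channels. Another kept XBP1 probe, detected in 5 channels, gave 0.55 and 0.28, the 1 probe of the list at or below 1/2 in miR-155 cells. Its miR-155/EV ratio was 0.52 (0.53 and 0.50).

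BACH1, the relative of BACH2, had the largest difference between the vectors in that list. Its IP/T ratio was 5.80 in EV cells (5.96 and 5.66) and 14.5 in miR-155 cells (14.7 and 14.2), so the miR-155/EV ratio was 2.50 (2.48 and 2.52). The total signal of BACH1 in miR-155 cells was 0.60 of that in EV cells. BACH2 went the other way on both counts, at 0.78 for the miR-155/EV ratio and 1.40 for the total fraction. HHEX, a homeobox factor of germinal centre B cells, followed at a miR-155/EV ratio of 1.40, from orientations of 1.05 and 1.88. POU2F1 and POU2F2, the octamer proteins that POU2AF1 binds, were picked after their values were seen. On the 1 kept probe of each, IP/T ratios were 3.42 and 2.11 in EV cells and 3.40 and 2.34 in miR-155 cells. The POU2F2 probe was detected in 6 channels, and its EV orientations gave 1.40 and 3.20.

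Corepressors, through which BCL6, BACH2 and IKZF1 silence genes, gave 24 kept probes of 32, for 14 of 16 genes. Of these, 7 had an IP/T ratio of 2 or more in EV cells, against 12.1% of all kept probes, and 4 in miR-155 cells, against 12.2%. In either vector 6 were at or below 1/2, against 10% in EV cells and 9.83% in miR-155 cells. The list median was 0.96 and 0.85. TBL1XR1, a subunit of the NCOR complexes, stood highest at 3.83 and 3.37 and had 4 kept probes between 1.97 and 3.83 in EV cells. TLE4 followed at 2.05 and 2.40. HDAC5, a histone deacetylase, stood lowest at 0.39 and 0.41, though another HDAC5 probe gave 2.02 in EV cells. CTBP1 stood at 0.42 and 0.48. CHD4, the helicase of the NuRD complex, had the largest miR-155/EV difference, a ratio of 1.38, from orientations of 1.81 and 1.05.

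Germinal centre B cell markers gave 23 kept probes for 18 genes. An IP/T ratio of 2 or more was reached by 3 of 23 in either vector, near the 12.1% and 12.2% of all kept probes. They came from 2 genes in EV cells and from 1 gene, MYBL1, in miR-155 cells. At or below 1/2 were 3 in EV cells, against 10%, and 1 in miR-155 cells, against 9.83%. The list median was 0.87 and 0.91. MYBL1, a MYB family factor of the germinal centre, stood highest at 12.6 and 11.5. Further kept MYBL1 probes, detected in fewer channels, gave 8.51 and 6.65, and 1.36 and 2.79. BCL7A, a chromatin remodelling subunit, followed at 2.33 and 1.997, though another kept BCL7A probe, detected in 6 channels, gave 0.76 and 1.19. CD79B, the signal chain of the B cell receptor, and MS4A1, which encodes CD20, stood lowest, at 0.47 and 0.52 and at 0.60 and 0.51. DTX1, a regulator of Notch signalling, had the largest miR-155/EV difference, a ratio of 1.27 (1.36 and 1.18).

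Plasma cell markers, the genes on the far side of the exit that BACH2 delays, gave 9 kept probes for 9 of 10 genes. FKBP11, a secretory pathway protein, stood at an IP/T ratio of 8.33 and 11.3, and MZB1, a chaperone of antibody secretion, at 2.95 and 3.99. Lowest were SSR4, part of the translocon, at 0.51 and 0.50, and DERL3, which acts in degradation from the endoplasmic reticulum, at 1.11 and 0.97. JCHAIN, the joining chain of secreted antibodies, had the largest miR-155/EV ratio, 1.76 (1.73 and 1.78). The 6 genes that the study followed as miR-155 targets had 11 kept probes, and 8 of them had a miR-155/EV ratio of 2 or more. The study picked them from genes whose IP/T ratio was at least 2-fold higher in miR-155 cells of these samples. That count thus follows largely from the choice and is no yardstick for the members. Of the members 0 of 7 reached 2, against 1.15% of all kept probes.

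**Figure D4:**
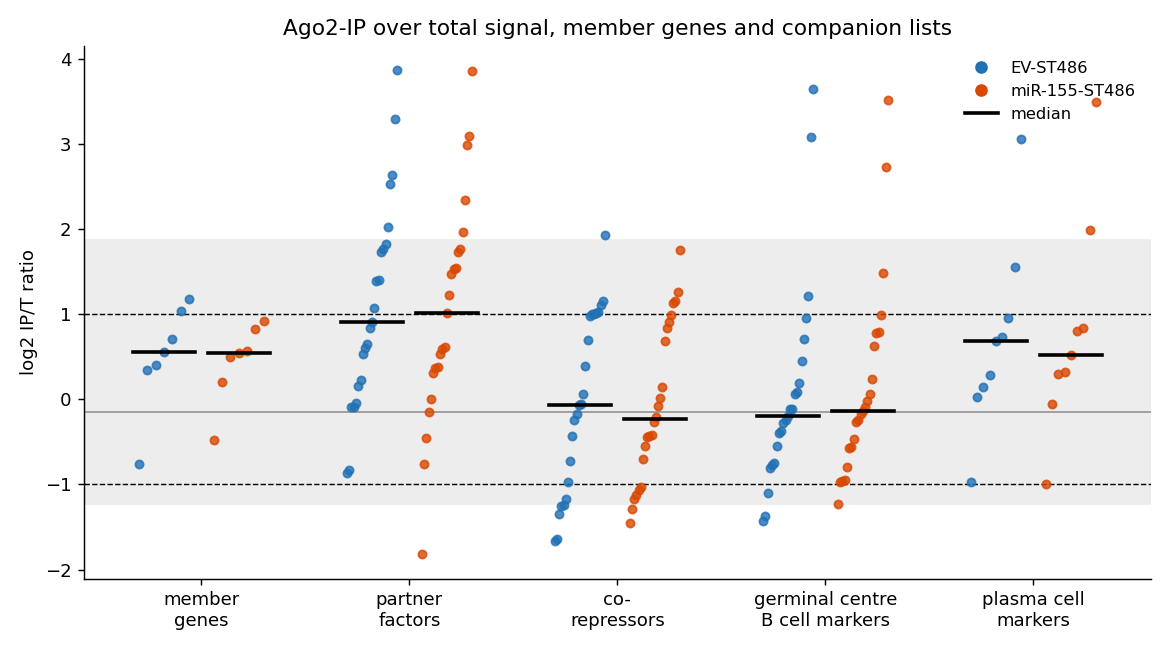
Log2 IP/T ratio of the kept probes of the members and of 4 companion lists, with blue points for EV cells and orange points for miR-155 cells, sorted within each list, and bars for the medians. The grey line and band give the median and the 5th to 95th percentile of all kept probes in EV cells, and dashed lines mark 2-fold. The member probes fill the range between IKZF1 probe 2 and BACH2, and all 4 companion lists reach further up.

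The transcripts whose 8-channel profile was most like that of BACH2, the member with the highest mean IP/T ratio, were CDC7, SLC38A2 and ZNF622, at Euclidean distances of 0.27, 0.29 and 0.30 on centred log2 signals, among 8907 probes compared. Their IP/T ratios were 1.95, 2.03 and 2.16 in EV cells and 1.79, 1.81 and 1.84 in miR-155 cells. For IKZF1 probe 2, the member with the lowest ratio, the nearest were RBM17, GPBP1L1 and SLC35B4, at 0.18, 0.18 and 0.21. Those had IP/T ratios of 0.57, 0.61 and 0.62 in EV cells and 0.70, 0.77 and 0.71 in miR-155 cells. The likeness is over 8 channels of 4 RNA samples, the same channels that give the IP/T ratios. Ratios near those of BACH2 and IKZF1 probe 2 thus follow from how these genes were picked.

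**Figure D5:**
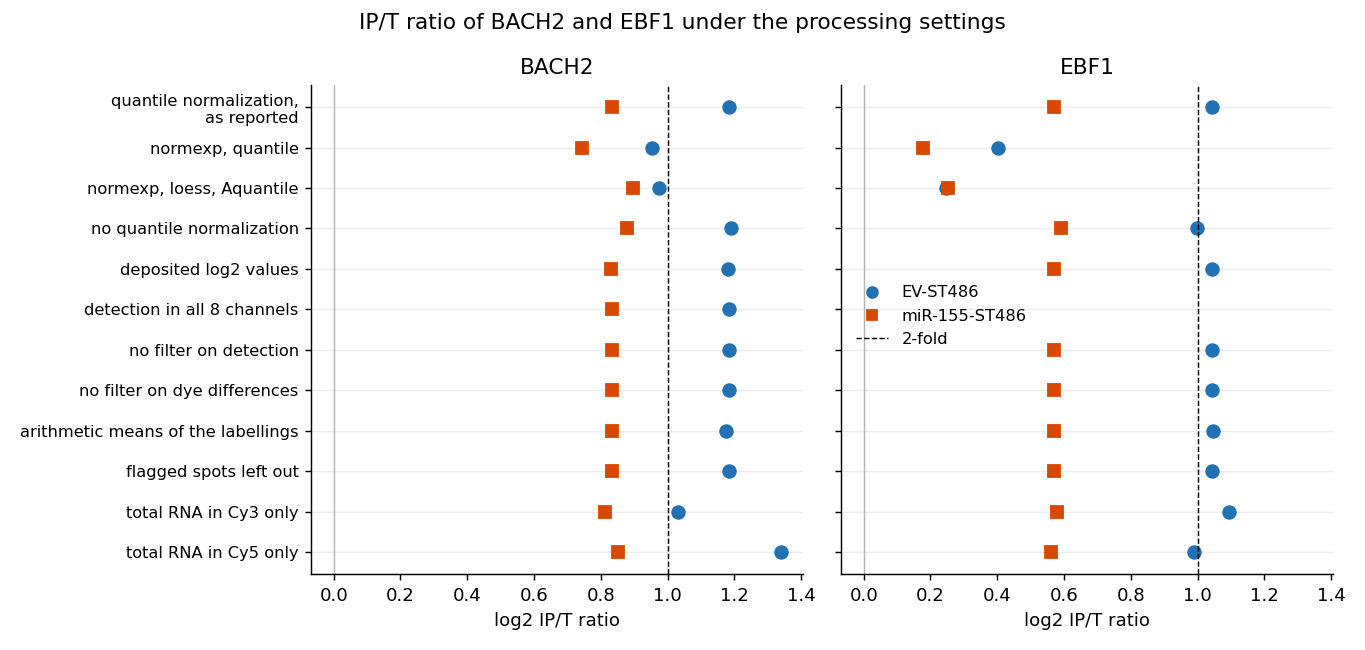
Log2 IP/T ratio of BACH2 (left) and EBF1 (right) under each processing setting, with blue circles for EV cells and orange squares for miR-155 cells and a dashed line at 2-fold. BACH2 keeps a log2 ratio near 1 throughout, and EBF1 drops toward 0 with normexp correction in both vectors. EBF1 has no value where detection in all 8 channels was required.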

How the data were processed

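The authors hybridized the labelled RNA to 44k Agilent arrays and deposited intensity values made with Feature Extraction 10.5.1.1 per the submitters' processing notes, with background and dye corrected array by array per the file headers. The authors also deposited log2 values of 14453 probes, made with GeneSpring by quantile normalization and filters on detection and dye differences; the 7 kept member probes are among them and differ by at most 0.012. Here control spots were left out, spots of a probe averaged, signals below 1 set to 1, log2 values quantile-normalized over the 8 channels, and labellings averaged. Detection means positive, significant and well above background. Probes of a gene are numbered by brightness. Symbols came from a RefSeq table, which matched 23958 probes.

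The members and lists were chosen with earlier results of these data known. Named are all members, the 2 highest and 2 lowest IP/T ratios and the 2 largest miR-155/EV differences per companion list among probes detected in all 8 channels, SPI1, and the 3 nearest profiles; of the other cell types, markers were picked after their values were seen. POU2F1, POU2F2 and the further probes of XBP1, HDAC5, MYBL1 and BCL7A stand outside this rule. The rule also lists 1 gene by name that is left unreported. The procedure was tested on simulated data. Alternatives were normexp (offset 50, median signals and local backgrounds, 33 backgrounds above 500 set to the channel median) with quantile or with loess and Aquantile normalization, no quantile normalization, the deposited log2 values, other detection and dye filters, arithmetic means, outlier spots left out and each orientation alone. Centring channels without quantile normalization was added after the values were seen. Versions were R 4.3.3 with limma 3.58.1, and Python 3.11.15 with matplotlib 3.10.9, numpy 2.4.6 and pandas 2.3.3.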

Additional observations from a re-analysis of the deposited data

Results flagged for a closer look

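A signal above background was found in 3 member probes that the filters left out and that enter no count of the members. PRDM1 was detected in 2 of 8 channels, IRF4 probe 2 in 5 of 8 and IKZF1 probe 1 in 6 of 8. IKZF1 probe 1 lay just outside the dye filter, with EV total signals of 350 in Cy3 and 167 in Cy5, a 2.09-fold difference where 2-fold was allowed. FOXO1 probe 2 lay just inside it, with a largest difference of 1.77-fold. The IP/T ratio of IKZF1 probe 1 was 0.93 in EV cells (0.55 and 1.58) and 0.85 in miR-155 cells (0.89 and 0.82), above that of IKZF1 probe 2 in both.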

How the results depend on the processing

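No paired analysis was possible because the replicate numbers mark the Cy3 and Cy5 labellings of 1 RNA sample per condition and no result comes from a test. The count of member probes with an IP/T ratio of 2 or more in EV cells, 2 as reported, was 0 of 9 under both normexp settings (6.05% and 4.93% of all kept probes), 1 of 7 (BACH2) without quantile normalization (12%), 1 of 6 (BACH2) with detection required in all 8 channels (11.5%) and 1 to 3 in single orientations. In miR-155 cells the count of 0 became 0 to 1 in single orientations, where FOXO1 probe 1 passed. The count of miR-155/EV ratios 1.5-fold or more either way, 0 as reported, was 1 of 9 without the dye filter (IRF4 probe 2, against 16.4%) and 0 to 2 in single orientations (FOXO1 probe 2 and IKZF1 probe 2). For the total fraction the count of 0 became 4 of 7 without quantile normalization (EBF1, BACH2 and both FOXO1 probes, against 33.7%), 1 of 9 without the dye filter (against 16.3%) and 1 to 2 in single orientations. It was 0 with channels centred. Counts in single orientations and with channels centred are given without the share of all kept probes and are not set against it. The median log2 IP/T ratio in miR-155 cells, 0.54, was 0.19 with normexp and quantile and 0.25 with normexp, loess and Aquantile normalization. In EV cells the median, 0.56, fell to 0.30 and 0.28, within the wider spread of its orientations. The margin over all kept probes shrank in both vectors. It went from 0.71 to 0.37 and 0.29 in EV cells and from 0.72 to 0.28 and 0.26 in miR-155 cells under the same settings. The median log2 total ratio, 0.22, was 0.18 and 0.079 under these, 0.70 without quantile normalization (0.26 above all kept probes), 0.16 with detection in all 8 channels, 0.38 without the dye filter and 0.15 to 0.19 in single orientations. The cause was not tested. Of the values of single member probes, 75 of 76 in EV cells and 76 of 76 in miR-155 cells kept the direction of the IP/T ratio, as did 67 of 76 miR-155/EV and 78 of 83 total ratios. Signals near background limit EBF1, PRDM1, IRF8 and PAX5.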
